A study of Mus musculus with 354 samples.

Results

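The complement and coagulation factors are plasma proteins that the liver makes and secretes, and their transcripts were described here in mouse liver. The list held 37 genes, chosen by name and with earlier results of these data known. Of them, 34 had at least 1 probe set that the array annotation assigns to a single gene symbol. C3, Cpb2 and Ahsg were not analysed here. Each gene was read from 1 probe set, the one with the highest mean, and all 34 genes passed the filter on dim genes, which kept 14125 of 16670 genes. Levels are log2 RMA values, so a difference of 1 is a 2-fold difference, and a level is never compared between genes.

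The 354 arrays came from livers of male mice of 45 Collaborative Cross strains, inbred lines derived from several founder strains. The Control group was 179 vehicle-treated mice, and the Tolvaptan group was 175 mice given tolvaptan, a vasopressin V2 receptor blocker known for liver injury in some patients, with liver taken at 24 h. All mice were 8 to 10 weeks old at dosing, went without food for roughly 18 h before necropsy after about 7 days of acclimation, and the series studied liver damage by the drug. A strain and treatment group held 4 animals in 85 of 90 cases, 3 in 4 cases and 2 in 1 case, and each array was 1 animal with no pooling stated. The tissue was a diced median lobe, so a lower level cannot tell fewer hepatocytes from less RNA per hepatocyte.

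The array medians lay between 2.81 and 3.02, with a typical value of 2.89 that serves here as the level of a dim gene. The 7 hepatocyte markers with a probe set all had means above it, and their mean level per array ran from 11.2 to 12.5 in Control and from 11.2 to 12.6 in Tolvaptan animals. Before any result, 34 arrays stood apart from their labelled strain: over the 500 probe sets that best separate strains, their correlation with the rest of that strain was at most 0.40, against at least 0.68 for the other arrays. These were 27 Control and 7 Tolvaptan arrays of 19 strains, 22 of them scanned on the second of 6 scan dates. Of the 34, 31 correlated above 0.75 with the profile of another strain, and whether their strain labels are wrong was not tested. All 34 arrays kept their labels in the tests, and for some of the results named below values are also given without them or in the 26 strains that have none.

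As background, complement is started by the lectins Mbl1 and Mbl2 with the proteases Masp1 and Masp2, or by the classical C1 complex. Both routes lead to a convertase whose protease is C2, while factor B (Cfb) is the protease of the alternative convertase. Cleavage of C5, encoded by Hc in the mouse, opens the terminal pathway, in which C6, C8 (chains from C8a, C8b and C8g) and C9 join to form a pore in the target membrane. In coagulation a cascade of proteases, many of them dependent on vitamin K, ends in thrombin, which turns fibrinogen (chains from Fga, Fgb and Fgg) into fibrin. Protein C, protein S, antithrombin and other serpins restrain the cascade, and plasmin dissolves the clot. Hc is also known for inherited C5 deficiency in some laboratory mouse strains, and the fibrinogen genes are known as acute phase genes that answer to interleukin 6.

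The fibrinogen genes lie side by side on chromosome 3 and varied together from animal to animal, and Hc was the member with low strains, so the 250 bases before the start of these 4 genes are printed, from RefSeq on GRCm38.p6. Capitals mark matches, on either strand, to 3 motifs: CTGGGAA, the core of interleukin 6 response elements, TTGCNNAA, a C/EBP site, and GTTAATNAT, an HNF1 site.
Fga, chr3:83025903-83026152, plus strand: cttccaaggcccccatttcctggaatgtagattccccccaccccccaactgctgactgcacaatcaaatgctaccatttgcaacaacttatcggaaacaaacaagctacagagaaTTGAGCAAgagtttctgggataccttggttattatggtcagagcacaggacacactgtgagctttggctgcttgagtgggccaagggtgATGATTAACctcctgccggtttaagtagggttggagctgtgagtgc
Fgb, chr3:83049864-83050113, minus strand: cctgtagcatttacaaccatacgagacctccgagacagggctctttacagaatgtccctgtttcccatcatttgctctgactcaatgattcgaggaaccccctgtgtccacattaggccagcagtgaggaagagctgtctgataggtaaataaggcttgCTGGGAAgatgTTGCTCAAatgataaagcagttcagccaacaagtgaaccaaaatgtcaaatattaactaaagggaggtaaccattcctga
Fgg, chr3:83007474-83007723, plus strand: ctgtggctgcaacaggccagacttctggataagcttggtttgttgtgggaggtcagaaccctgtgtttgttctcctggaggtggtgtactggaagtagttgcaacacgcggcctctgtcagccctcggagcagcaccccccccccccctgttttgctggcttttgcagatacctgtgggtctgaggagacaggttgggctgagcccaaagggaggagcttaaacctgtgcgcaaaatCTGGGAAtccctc
Hc, chr2:35061413-35061662, minus strand: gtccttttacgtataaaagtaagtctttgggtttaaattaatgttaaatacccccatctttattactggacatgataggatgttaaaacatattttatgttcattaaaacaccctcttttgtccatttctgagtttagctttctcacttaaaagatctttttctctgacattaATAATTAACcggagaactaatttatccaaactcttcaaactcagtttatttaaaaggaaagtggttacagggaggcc
The interleukin 6 motif was in the windows of Fgb and Fgg, starting 91 and 13 bases before the gene start, and the C/EBP motif in those of Fga and Fgb, starting 135 and 80 bases before it. The HNF1 motif was in the windows of Fga and Hc, starting 46 and 77 bases before the start. Of 32851 mouse promoter windows of this length, 9.10% held the interleukin 6 motif, 9.56% the C/EBP motif and 0.737% the HNF1 motif. The table held 27 windows for 26 of the 34 genes, of which 4, 6 and 4 held the respective motif. The windows with the HNF1 motif were those of C4bp, F13b, Fga and Hc. No overlap between motifs was marked in the printed windows, and a match says nothing about binding.

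Averaged over the 45 strains, tolvaptan moved these genes little. C8g, which encodes the gamma chain of C8, was the only one of 34 genes called, and it fell by 0.06 on the log2 scale, a change of -4.21% (limma, Benjamini-Hochberg adjusted p = 0.0403 over 14125 genes). Of all genes tested, 0.496% were called. The difference was positive for 12 of the 34 genes and negative for 22, with a median of -0.021, against 0.00 over all genes tested. At an unadjusted p under 0.05 from limma the count was 8 of 34 genes, or 23.5%, against 9.56% of all genes. In scans 2 to 6 it was 12 of 34, or 35.3%, against 11.8%. With strains as the unit it was 4 of 34, or 11.8%, against 8.77%. In the earliest scan alone and without the second scan it was 0 of 34, against 2.53% and 6.41%.

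Across animals, C8g had a mean of 12.03 ± 0.19 (SD, n = 179) in Control and 11.97 ± 0.18 (SD, n = 175) in Tolvaptan livers, so the group difference was smaller than the spread within a group. The strain mean was lower with tolvaptan in 32 of 45 strains and higher in 13. Within the earliest scan, which held 1 Control and 1 Tolvaptan animal of each strain, the difference was 0.03 ± 0.03 (SE). Within the second to sixth scans it was -0.08, -0.08, -0.11, -0.15 and -0.03, in 16, 16, 8, 4 and 1 strains. Without the 34 arrays off their strain, C8g stood at -0.05 with an adjusted p of 0.136 from limma, and no member was called among 0.312% of all genes, while 9 of 34 members and 10.9% of all genes had an unadjusted p under 0.05. In the 26 strains free of such arrays it stood at -0.08 with an adjusted p of 0.0241.

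**Figure D1:**
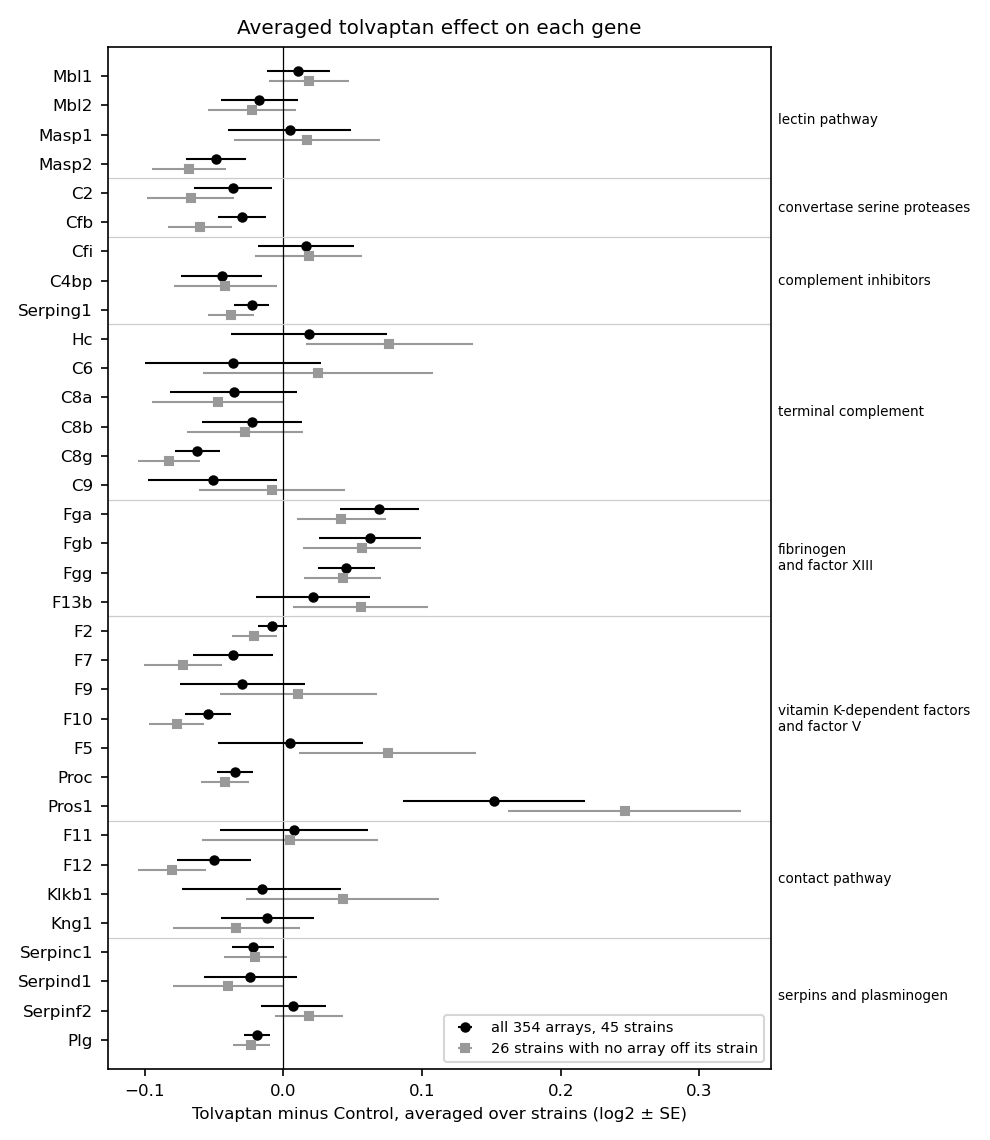
Tolvaptan minus Control for each of the 34 genes, averaged over strains (x axis, log2, with bars of 1 SE), grouped by role; black circles use all 354 arrays of 45 strains and grey squares the 26 strains free of arrays off their strain. All points but those of Pros1 lie between -0.1 and 0.1, and the 3 fibrinogen genes and F13b lie above 0 in both.

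Among the starters of the complement cascade, none of the 4 lectin pathway genes was called. The lectins stood near 0, Mbl1 at 0.01 ± 0.02 (SE) and Mbl2 at -0.02 ± 0.03, as did the protease Masp1 at 0.00 ± 0.04, while Masp2, the protease that cleaves C4 and C2, stood at -0.05 ± 0.02 and was lower in 32 of 45 strains (adjusted p = 0.423). The convertase proteases C2 and Cfb stood at -0.04 and -0.03. The complement inhibitors Cfi, which cleaves C3b and C4b, C4bp, its cofactor, and Serping1, the C1 inhibitor, stood at 0.02, -0.04 and -0.02, and none was called.

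In the terminal pathway, 5 of 6 genes had negative differences, with C8g alone called. C9, the pore-forming subunit, had a difference of -0.05 ± 0.05 (SE), C6 -0.04 ± 0.06, C8a -0.04 ± 0.05 and C8b -0.02 ± 0.04, with adjusted p-values from 0.802 to 0.916, while Hc stood at 0.02 ± 0.06. The protein holds the 3 chains of C8 in equal numbers, and whether their differences were unequal was not tested. Without the arrays off their strain, C9 stood at 0.02 and C6 at 0.01, both turned in sign, and neither was called in either fit.

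The 3 fibrinogen genes all had positive differences below the threshold. Fga had a mean of 12.17 ± 0.39 (SD) in Control and 12.24 ± 0.37 in Tolvaptan livers, with a difference of 0.07 ± 0.03 (SE) and an adjusted p of 0.357. Fgb had a difference of 0.06 ± 0.04 (adjusted p = 0.621) and Fgg of 0.05 ± 0.02 (adjusted p = 0.448). Tolvaptan strain means were higher in 27, 28 and 27 of 45 strains for Fga, Fgb and Fgg. Within the second scan the 3 differences were 0.15, 0.17 and 0.11, and within the earliest scan 0.05, -0.07 and -0.01. F13b, the carrier subunit of the fibrin cross-linking factor XIII, stood at 0.02 ± 0.04.

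Among the vitamin K-dependent factors and factor V, none of 7 genes was called. Pros1, which encodes protein S, the cofactor of activated protein C, had the largest averaged difference of the 34 genes, 0.15 ± 0.07 (SE), with means of 6.17 ± 0.75 (SD) in Control and 6.31 ± 0.65 in Tolvaptan livers and an adjusted p of 0.406. It was higher in 29 of 45 strains, and its spread within a group was also among the widest. F10, factor X, stood at -0.05 ± 0.02 (adjusted p = 0.119) and was lower in 30 of 45 strains. In the 26 strains free of arrays off their strain, where 2.12% of all genes were called, F10 was called at -0.08 ± 0.02 (adjusted p = 0.0175), and C8g was the other member called. F10 differed by -0.0030 within the earliest scan and by -0.02, -0.07, -0.15, 0.01 and 0.01 within the second to sixth. The other 2 probe sets of F10 gave means of strain differences of -0.02 and -0.03. Proc (protein C), F7 (factor VII), F9 (factor IX), F2 (prothrombin) and F5 (factor V) stood between -0.04 and 0.01.

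The contact pathway and the inhibitors moved no further. F12, the contact factor that starts the intrinsic route, stood at -0.05 ± 0.03 (SE) with an adjusted p of 0.556 and was lower in 33 of 45 strains, while Klkb1 (prekallikrein), Kng1 (kininogen) and F11 (factor XI) lay between -0.02 and 0.01. Antithrombin (Serpinc1), heparin cofactor II (Serpind1), antiplasmin (Serpinf2) and plasminogen (Plg) lay between -0.02 and 0.01, and none was called.

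In single strains, 4 member and strain pairs were called, all in 2 strains, against 0.281% of all gene and strain pairs. C8b, the beta chain of C8, was higher with tolvaptan in OR13067 by 0.89 ± 0.24 (SE, limma adjusted p = 0.0351), where 1.16% of all genes were called. In OR5119, where 1.90% of all genes were called, F10 differed by -0.41 ± 0.11 (adjusted p = 0.0221), Proc by -0.41 ± 0.09 (adjusted p = 0.00123) and Serpinf2 by -0.64 ± 0.16 (adjusted p = 0.00983). Factor X, protein C and antiplasmin are respectively a clotting protease, an anticoagulant protease and the main plasmin inhibitor. At an unadjusted p under 0.05 there were 86 member and strain pairs, 5.62% of 1530, against 5.45% of all gene and strain pairs.

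C8b levels in OR13067 Control animals were 8.74, 8.84, 10.21 and 9.72, and in Tolvaptan animals 10.54, 10.18, 9.86 and 10.40. The first 2 Control values came from the arrays off their strain, and the remaining Control values lay within or just below the Tolvaptan range. Without those arrays the difference was 0.31 and was not called, with an adjusted p of 0.909 from limma.

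Proc in OR5119 was 11.87, 11.68, 11.73 and 11.82 in Control animals and 11.36, 11.63, 11.31 and 11.23 in Tolvaptan animals, so the groups did not overlap. Single animals were looked at because these pairs were called, and the share of all genes without overlap was not computed. F10 was 11.88, 11.12, 11.08 and 11.01 in the same Control animals and 10.78, 10.97, 10.44 and 10.98 in the same Tolvaptan animals. These groups did not overlap either, but the lowest Control and the highest Tolvaptan values lay close together, and the fourth Control array was off its strain. Without Tolvaptan animal 368, Proc stood at -0.32 with an adjusted p of 0.0806, and without Control animal 361 or Tolvaptan animal 367, F10 stood at -0.27 and -0.30 with adjusted p-values of 0.298 and 0.271, all from limma. The other F10 probe set in the middle of the level range gave -0.51 with an adjusted p of 0.306.

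Serpinf2 in OR5119 was 12.15, 11.90, 11.86 and 11.82 in Control animals and 12.30, 11.97, 11.75 and 9.46 in Tolvaptan animals. Only Tolvaptan animal 368 was low, and without it the difference was 0.03 (adjusted p = 0.985, limma). Animal 368 was scanned on the earliest date with Control animal 364, and the other 3 Tolvaptan animals were scanned on the fourth date.

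**Figure D2:**
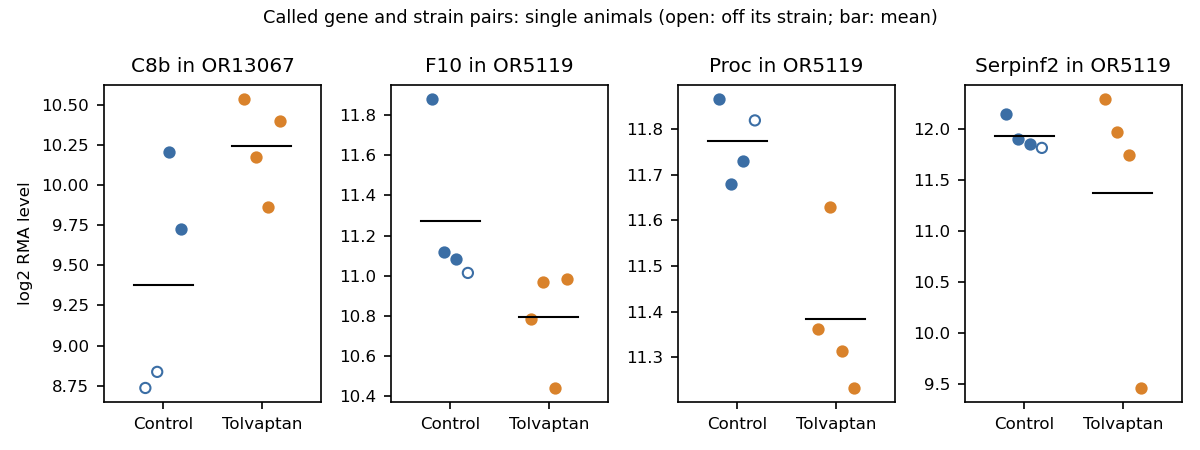
Levels (y axis, log2 RMA, each panel on its own scale) in single animals for the 4 called gene and strain pairs, Control in blue and Tolvaptan in orange; open circles are arrays off their labelled strain and bars are means. The 2 low C8b Control values are open circles, and Serpinf2 turns on 1 Tolvaptan animal at 9.46. The Proc and F10 groups lie apart, F10 only narrowly, in pairs shown because they were called.

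Leaving out the 34 arrays off their strain gave 10 called pairs, with 0.319% of all gene and strain pairs called. They included F10, Proc and Serpinf2 in OR5119 with Serping1 (-0.30), F7 in AU8024 (0.92), and 5 genes in AU8033: C9 (1.21), Cfi (0.90), F5 (1.45), Masp2 (-0.71) and Proc (-0.35). In AU8033 only 2 Control and 3 Tolvaptan animals then remained. C9 there was 9.34 and 9.55 in the remaining Control animals and 10.46, 10.70 and 10.69 in the remaining Tolvaptan animals. The 3 arrays left out read 10.59, 10.49 and 10.61. No pair was called in the 26 strains free of such arrays, where 0.301% of all pairs were called, or when each strain was fitted on its own arrays, where 0.00645% were. At an unadjusted p under 0.05 these fits had 45 and 59 member pairs, 5.09% and 3.86%, against 5.60% and 5.29% of all pairs.

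Whether the tolvaptan effect differed between strains was tested for each gene over all 45 strains. No member was called by limma's F test, with 4 of 34 members at an unadjusted p under 0.05 against 6.78% of all genes, and 0.0212% of all genes were called. The lowest adjusted p was that of F10, 0.318. Single-strain differences ran widest for C6, from -1.48 in IL16211 to 0.68 in OR13067, and narrowest for Plg, from -0.18 to 0.12.

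Control strain means ranged more widely than the drug effect averaged over 45 strains. These are unlike measures, since a range over small groups also holds the spread between animals. Drug differences in single strains ran from -1.10 to 1.02 for Pros1 against a Control range of 2.10. For C6 they ran from -1.48 to 0.68 against 3.82. All 34 genes were called for differences among the 45 Control strain means, against 74.9% of all genes, and their median F was 2.75 against 2.07 over all genes tested. Under a stricter filter on dim genes, all 34 members and 8924 of 10118 genes were called. In the 26 strains free of arrays off their strain, 27 of 34 members were called, against 57.8% of all genes. The range from the lowest to the highest Control strain mean exceeded 1 for 23 members and 2 for 6, with a median of 1.30 over members and 1.05 over all genes tested. C6 and Hc spanned most in signal, 14.1-fold and 11.2-fold. Each had 1 probe set, and whether signal differences between strains reflect RNA levels was not tested for any member. Narrowest were prothrombin (F2, range 0.29), Proc (0.42), Serping1 (0.43), Plg (0.46) and antithrombin (Serpinc1, 0.49), which are also among the members with the least spread within a strain. Their Control means were 13.02, 11.77, 12.37, 12.81 and 13.06 in that order, and whether differences at such levels are compressed was not tested.

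No member was lost to background in any strain. The lowest Control strain mean of any member was 4.97, for Pros1 in OR13067, above the typical array median of 2.89. By the rule of a Control mean at least 2 log2 units below the median strain, Hc alone had low strains, IL16513 and OR13140. With a limit of 1 log2 unit 11 members had at least 1 such strain. The share of all genes with a low strain was not computed. By the same rule on Tolvaptan means, Hc alone had a low strain, IL16513.

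Hc, the gene of C5, had a median Control strain mean of 9.93 (F test of strain differences, adjusted p = 4.87e-39, limma). In IL16513 the Control animals were at 6.95, 7.36, 7.70 and 7.49, a mean of 7.37 ± 0.32 (SD), and the Tolvaptan animals at 8.40, 6.85, 7.55 and 8.30, so all 8 animals were below that median. In OR13140 the Control animals were at 8.31, 7.23, 7.64 and 7.94, and the Tolvaptan animals at 8.33, 8.93, 8.35 and 9.28. The difference of 0.94 was not called, and OR13140 was picked for its low Control mean, which by itself favours a positive difference. Just outside the limit, IL16680 had a Control mean of 8.01, with animals at 8.82, 8.39, 8.67 and 6.17. At the other end OR3032 had a Control mean of 10.86, with animals at 10.93, 10.43, 10.56 and 11.51. None of the arrays in these 4 strains was off its strain. The widest gap between neighbours in the order of Hc strain means was 0.41, between these 2 low strains, and 10 strains lay at least 1 log2 unit below the median.

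C6, a terminal complement protein that binds C5b, spread to both sides of its median of 9.06, with 6 strains at least 1 unit below it and 4 at least 1 unit above (adjusted p = 2.83e-25, limma). AU8016 was highest, with Control animals at 11.14, 11.60, 11.88 and 11.03 and its 2 Tolvaptan animals at 11.54 and 10.69. IL16188 was lowest, with Control animals at 9.02, 7.55, 7.10 and 6.69 and Tolvaptan animals at 7.40, 6.88, 6.91 and 7.32. The Control animal at 9.02 was the array off its strain, and without such arrays the range over strains rose from 3.82 to 4.30. IL16188 and AU8016 were picked as the ends of the C6 order, so a gap between their animals is no test. AU8016 stood 0.79 above the next strain, more than the larger SD of both, 0.66.

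**Figure D3:**
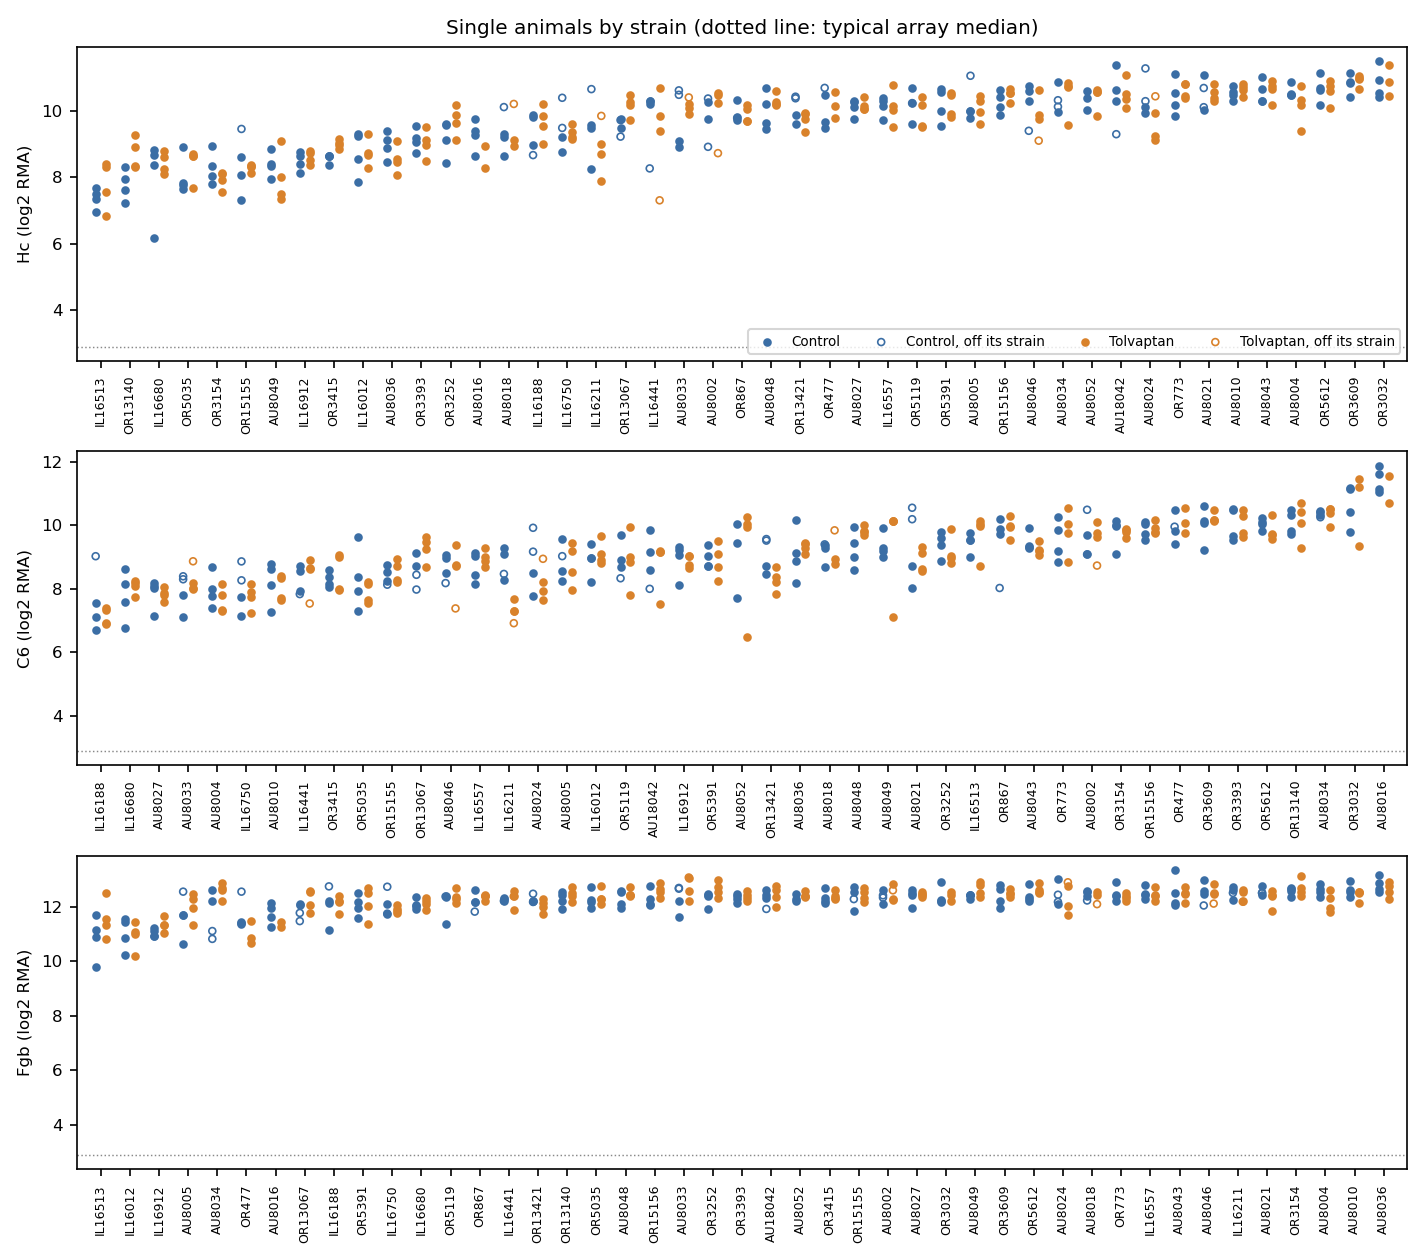
Hc, C6 and Fgb levels (y axis, log2 RMA) of single animals in 45 strains ordered by Control mean (x axis), Control in blue and Tolvaptan in orange, with open circles for arrays off their strain and a dotted line at the typical array median of 2.89. Tolvaptan animals follow the Control order for Hc and C6, every animal lies above the dotted line, and Fgb is low in IL16513, IL16012 and IL16912.

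The strain order of the Control animals came back in the Tolvaptan animals, which are separate mice. Over the 45 strains the correlation of Control and Tolvaptan strain means was 0.92 for Hc, 0.91 for C6 and 0.92 for Mbl1, as a description with no test, and the 2 sets share strain, scan dates and arrays processed together. For Hc, 8 of the 10 lowest and 8 of the 10 highest Control strains were also among those in Tolvaptan animals, and for C6 8 and 9. The correlation was above 0.8 for 9 members, had a median of 0.69 over members and 0.57 over all genes tested, and was lowest for Fgg at 0.28 and Serpinc1 at 0.40.

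Fgb was the fibrinogen chain that differed most between strains, with a range of 1.93, against 1.14 for Fga and 0.57 for Fgg. Its lowest strains were IL16513 at 10.88 ± 0.81 (SD, n = 4), IL16012 at 11.02 ± 0.62 and IL16912 at 11.05 ± 0.15, below a median of 12.31. Tolvaptan means in these strains were 11.56, 10.92 and 11.34. Fgb in IL16012 was 10.21, 10.86, 11.56 and 11.44 in Control and 11.44, 10.98, 10.20 and 11.06 in Tolvaptan animals, and in IL16912 it was 11.23, 10.94, 11.11 and 10.93 against 11.32, 11.02, 11.67 and 11.33. The groups overlapped in each, and all values of these 2 strains were below the median strain. In IL16513 Fgb was 9.77, 11.13, 10.89 and 11.71 in Control and 11.33, 10.83, 11.55 and 12.51 in Tolvaptan animals, of which the last was above that median. Fgb was highest in AU8036, at 12.80 ± 0.28.

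C9 ran from 9.99 ± 0.64 (SD, n = 4) in AU8033 to 12.32 ± 0.20 in OR3609. The AU8033 Control animals were at 10.59, 10.49, 9.34 and 9.55, of which the first 2 were arrays off their strain, and those of OR3609 at 12.25, 12.10, 12.55 and 12.40. Without such arrays the same strains were at the ends and the C9 range was 2.88 in place of 2.33. In Tolvaptan animals C9 was again highest in OR3609, at 12.25, and lowest in IL16441. C8b ran from 9.11 ± 0.39 in OR15155 to 11.21 ± 0.43 in AU8048, and Tolvaptan animals had the same lowest and highest strains, at 8.91 and 11.39. Masp1 ran from 8.21 in OR13140 to 9.91 in AU8018, with Tolvaptan means of 8.68 and 9.82 there. Its 4 other probe sets followed the chosen one over strains with correlations of 0.50, 0.32, 0.43 and -0.09, the last at a mean level of 2.31, so the strain order of Masp1 depends on the probe set.

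Klkb1, prekallikrein, ran from 8.71 ± 0.51 (SD, n = 4) in OR15155 to 11.00 ± 0.41 in OR3252. Low Klkb1 was also found in IL16750 at 8.89 ± 1.41 and OR13421 at 9.0 ± 1.06, where 2 of the 4 Control arrays were off their strain in each, and in Tolvaptan animals these 3 strains were at 9.25, 8.58 and 8.65. Without such arrays IL16750 was lowest, at 8.39, and the range was 2.61 in place of 2.29. F11 ran from 5.90 ± 1.40 in IL16188 to 7.87 ± 0.95 in IL16211, but its Tolvaptan mean in IL16211 was 6.82, and the highest Control value in IL16188, 7.78, came from an array off its strain. Without such arrays the F11 range was 2.64 in place of 1.97. F5 ran from 8.89 ± 0.46 in IL16513 to 10.73 ± 0.28 in OR3393, with Tolvaptan means of 9.19 and 10.14, and its second probe set followed the first with a correlation of 0.86. Without the arrays off their strain AU8033 was the lowest F5 strain, at 8.02, and the range was 2.71 in place of 1.84. Pros1 ran from 4.97 ± 0.55 in OR13067 to 7.07 ± 0.25 in AU8010, with Tolvaptan means of 5.88 and 7.23. In OR13067 the Control animals had Pros1 at 4.29, 4.92, 5.62 and 5.06, the first 2 on arrays off their strain. Once all 34 such arrays were left out, the Pros1 ends were IL16750 at 4.99 and AU8021 at 7.13, and the highest C8b strain was OR5119 at 11.24. Of the 20 ends of these 10 orders, the highest C6 strain was the only one set apart from its neighbour by more than the larger SD.

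Probe sets of 1 gene did not always share the strain order. The second Kng1 probe set correlated at -0.01 with the chosen one over Control strain means, that of Masp2 at 0.21, and the other 2 of F10 at 0.39 and 0.40.

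**Figure D4:**
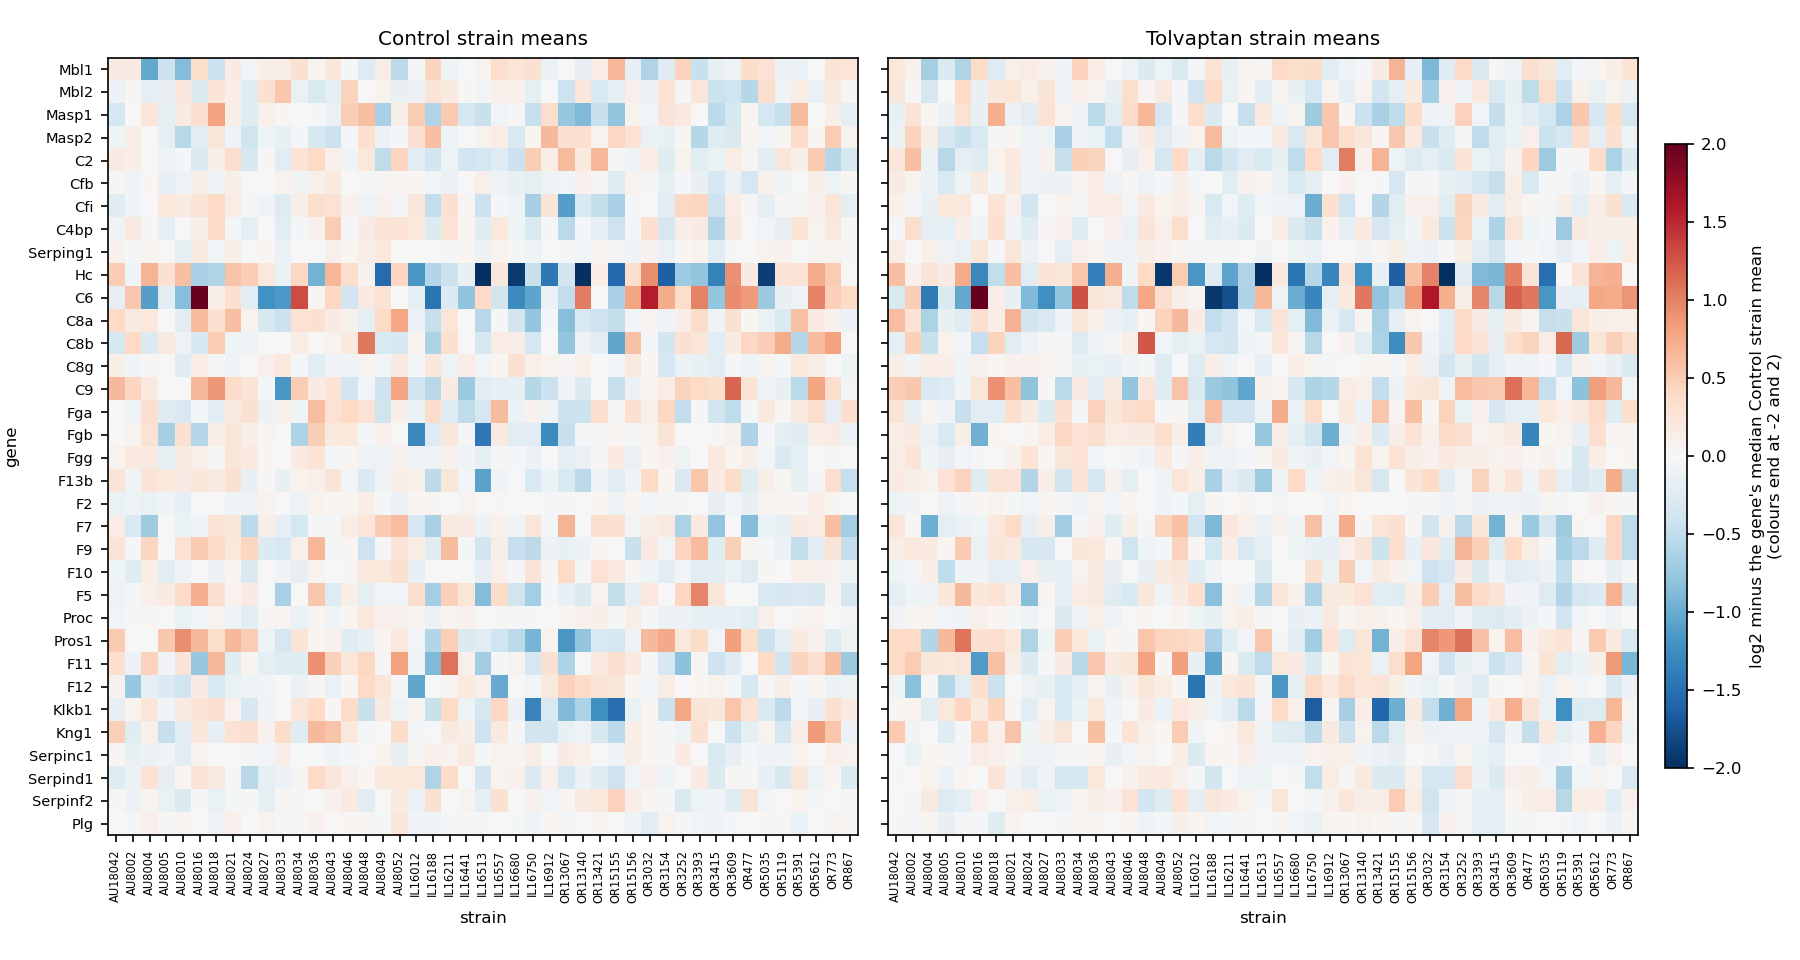
Control (left) and Tolvaptan (right) strain means of the 34 genes (rows) in 45 strains (columns), as log2 difference from the gene's median Control strain mean, blue below and red above, with colours ending at -2 and 2. Hc and C6 have the strongest colours and the same strains in both panels, while F2, Plg and Serpinc1 are pale throughout.

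Genes that lie next to each other on a chromosome shared strain order to very different degrees. Over Control strain means the correlation was 0.59 for F7 and F10 on chromosome 8, and 0.30 for Fga with Fgb, 0.22 for Fga with Fgg, 0.17 for C8a with C8b, 0.11 for C2 with Cfb and 0.09 for F11 with Klkb1, against a median of 0.11 over all 561 pairs of members. Within strain and treatment, after removal of scan means, the fibrinogen chains correlated at 0.59, 0.60 and 0.61, C8a with C8b at 0.51 and C8a with C8g at -0.35, with a median of 0.16 over all pairs. These are descriptions over the same arrays, and the 75th percentile of the array's values within the same groups correlated with Fga at 0.39, Fgb at 0.39 and Fgg at 0.14. Its mean was 5.17 ± 0.11 (SD) in Control and 5.17 ± 0.09 in Tolvaptan arrays.

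The other genes of the pathways, from lists chosen with earlier results known, moved as little with the drug. Of 20 further complement genes none was called, and of 33 further coagulation and fibrinolysis genes 1 was called, Serpinf1, which differed by -0.06 ± 0.01 (SE, adjusted p = 0.0186, limma), against the 0.496% of all genes. Serpinf1 encodes pigment epithelium-derived factor, a serpin without protease-inhibiting activity that is not a clotting factor, and was also called in the 26 strains free of arrays off their strain (-0.08). In those 26 strains Cfp, properdin, which stabilises the alternative convertase, was called as well, at -0.18 with an adjusted p of 0.0468 from limma, against -0.08 with an adjusted p of 0.684 over all arrays. Of 10 regulators of these genes, Hnf4a, C/EBP factors, Stat3 and others, none was called. The largest differences, none of them called, were those of Fgl1, a fibrinogen-like liver protein, at 0.20 ± 0.07 (adjusted p = 0.186), Socs3, a feedback inhibitor of interleukin 6 signalling, at 0.14 ± 0.06 (adjusted p = 0.362), the lectin Colec10 at -0.13 ± 0.05 (adjusted p = 0.265) and Serpina5, the protein C inhibitor, at 0.09 ± 0.04 (adjusted p = 0.50), with Serpina5 below the typical array median. Of the marker genes of other cells, 2 were called, the sinusoidal endothelial gene Stab2 at -0.19 ± 0.04 (adjusted p = 0.00104) and the pancreatic gene Cela2a at 0.23 ± 0.06 (adjusted p = 0.0385), and Cela2a was no longer called once the 34 arrays were left out (0.20, adjusted p = 0.0898). All 5 endothelial, 5 stellate, 4 B and plasma cell and 2 erythroid differences were negative and all 4 T and NK cell differences positive, with medians of -0.04, -0.06, -0.05, -0.09 and 0.03, while Kupffer cell and neutrophil markers were split evenly. The mean level of the endothelial list ran from 6.01 to 8.13 over Control and from 5.33 to 8.25 over Tolvaptan arrays, and the part of these markers in the results on the members was not tested.

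Signals at background in 1 strain were found among these other genes, in the classical pathway. Each gene was read from 1 probe set, and whether the low signal reflects less RNA was not tested. In strain AU8010, C1s1 and C1rb, which encode the C1s and C1r proteases of the C1 complex, lay below the typical array median in all 8 animals. C1rb was at 1.79, 2.07, 2.06 and 1.41 in Control and 2.15, 1.56, 1.41 and 2.37 in Tolvaptan animals, while the lowest single array of the other 44 strains was at 6.90. C1s1 was at 1.86, 1.63, 2.33 and 1.73 in Control and 1.75, 2.57, 1.75 and 1.98 in Tolvaptan animals, against a lowest single array of 6.22 elsewhere. C1ra, the third gene of the group, was at 7.73, 7.68, 7.56 and 7.58 in Control and 7.59, 7.89, 7.54 and 7.50 in Tolvaptan animals, against at least 9.83 elsewhere, and its AU8010 Control mean of 7.64 was 3.21 below the median of the other strains. None of the 8 AU8010 arrays was off its strain.

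**Figure D5:**
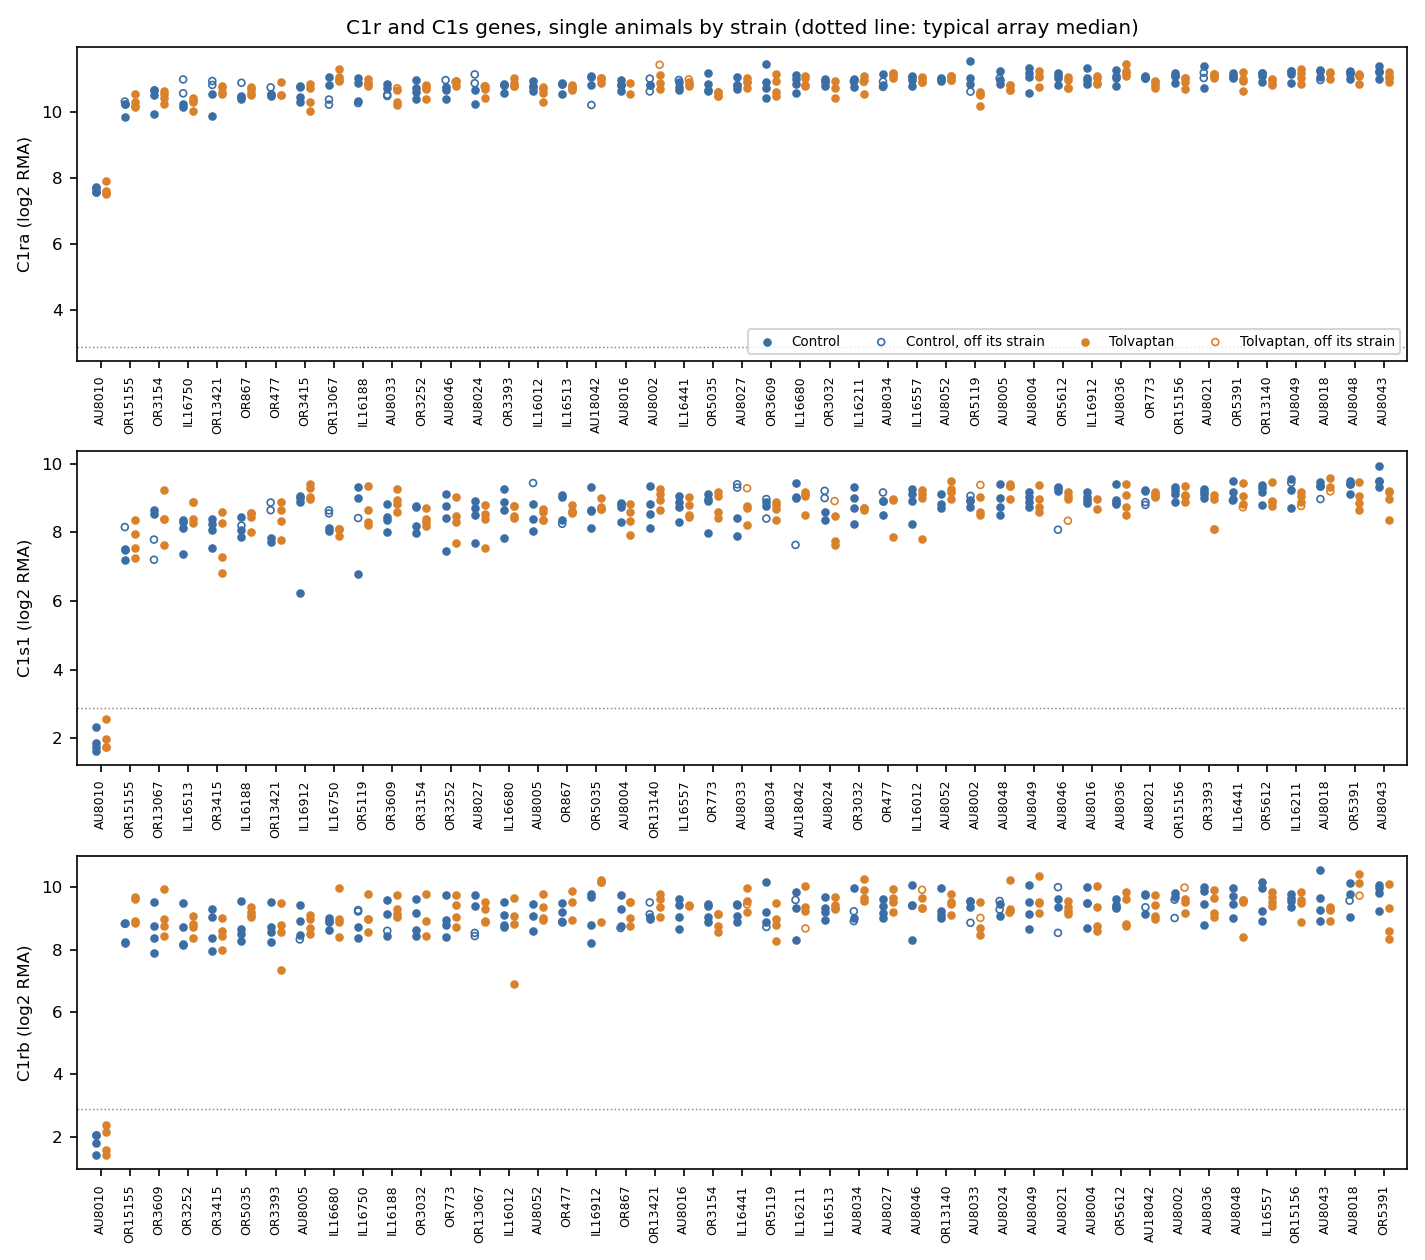
C1ra, C1s1 and C1rb levels (y axis, log2 RMA) of single animals in 45 strains ordered by Control mean (x axis), Control in blue and Tolvaptan in orange, with open circles for arrays off their strain and a dotted line at the typical array median of 2.89. AU8010 is lowest in all 3 panels, with all 8 animals under the dotted line for C1s1 and C1rb and at 7.50 to 7.89 for C1ra.

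The 3 genes follow each other on chromosome 6 in RefSeq, as C1ra, C1s1 and C1rb. Mouse C1ra and C1rb, and C1s1 and C1s2, are close copies, so a probe set of 1 may also read its copy, and each of the 3 genes had a single probe set here. In the same range order came Serpina1a, an alpha-1 antitrypsin gene with several close copies. Its Control strain means ran from 10.07 in AU8049 to 13.25 in AU8034, with a correlation of 0.97 between Control and Tolvaptan strain means. Among the members, AU8010 had the highest Pros1 strain mean and the lowest F2 strain mean, at 12.87, within a range of 0.29.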

How the data were processed

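The authors' deposited values were log2 expression values of 42597 probe sets from HT_MG-430 PM arrays, made with RMA in Affymetrix Expression Console per the submitters' processing notes; the genome build and annotation were not given in the sources used here. RMA normalizes all arrays together, and values near background are compressed. Of the probe sets, 27691 had a single gene symbol in the platform annotation, 493 several, 14376 none and 37 were controls. The highest-mean probe set stood for a gene, and genes above the array median in at least 4 arrays were tested. The members and gene lists were chosen with earlier results of these data known. limma 3.58.1 (R 4.3.3) fitted 1 mean for each strain and treatment plus the scan date, over all 354 arrays, and gave the averaged effect, the effect in each strain, the difference between strains and the Control strain differences, with Benjamini-Hochberg adjusted p-values called under 0.05 (within each strain for single strains). The script was tested on simulated data. Other tables were made with Python 3.11.15. Named were the members called, the 8 of largest averaged difference, all called strain pairs, the 10 of largest Control strain range, the fibrinogen chains and the terminal complement genes. Arrays measure relative levels, and their number limits the precision. Animals carry no pairing, and p-values rest on the spread between animals, or between strains where strains were the unit.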

Additional observations from a re-analysis of the deposited data

Results flagged for a closer look

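A single animal stood apart from the others of its group in 2 of 59 groups of 4 animals whose values were looked at, and chance alone sets 1 in about 20 such groups apart. F10 in OR5119 was at 11.88 in Control animal 361, against 11.01 to 11.12 in the other 3 Control animals. Hc in IL16680 was at 6.17 in Control animal 424, the lowest of that strain, against 8.39 to 8.82 in the other 3 Control animals. Animal 361 was scanned on the sixth date and animal 424 on the earliest.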

How the results depend on the processing

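The count of members called for the averaged effect was 1 in the fit reported and under 5 of 13 alternatives. It fell to 0 on leaving out arrays off their strain, with no scan term and with arrays centred on their median. The same held with strains as the unit, in the earliest scan alone and without scan 2. The count was 2 in the 26 strains and in scans 2 to 6, where 300 and 158 of 14125 genes were called. At an unadjusted p under 0.05, limma gave 0 to 9 of 34 members in the 6 fits with none called, against 2.53% to 10.9% of all genes. Pairs called numbered 4, and 10 without the arrays off their strain, 0 in the 26 strains, 2 with centred arrays and 0 with each strain on its own arrays. Members with a low strain numbered 1, and 11 with a limit of 1 and 0 with a limit of 3 log2 units, with the share of all genes not computed. Of 13 named members, 4 kept the sign of the averaged difference under every alternative. In the earliest scan alone the sign turned for C8g (0.032), Pros1 (-0.0064), Fgb (-0.074), F12 (0.028), Masp2 (0.027), Fgg (-0.0073), C6 (0.091) and C8b (0.022), for Fgb also without scan 2 (-0.017), for C9 and C6 without the arrays off their strain (0.022 and 0.014) and for C6 in the 26 strains (0.025). Leaving out single animals, Serpinf2 in OR5119 ran from -0.93 to 0.027, the latter without Tolvaptan animal 368. The cause was not tested. All 9 alternatives gave 0 members for the difference between strains. At an unadjusted p under 0.05 from limma they gave 1 to 6 of 34 members, against 4.24% to 7.16% of all genes. For Control strain differences they gave 27 to 34 members called. There 79.4% to 100% of members and 62.4% to 88.9% of all genes had an unadjusted p under 0.05. Levels under the array median are close to background, and their differences are compressed.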
